A study of Rattus norvegicus with 12 samples.

Results

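Expression of 9 complement genes was described in dispersed cervix cells of rats: the subunits C1qa, C1qb and C1qc, the protease C1s, the components C3, Cfb and Cfp, and the anaphylatoxin receptors C5ar1 and C3ar1. Each gene was found by its name in the scanner files, and each had 1 probe among the 30367 probes (26583 gene names) on the array. RNA came from 12 adult female Sprague Dawley rats without genetic change, each hybridised to its own 1-colour array. Pregnant rats were at day 21 after breeding (D21), the day before birth is due, and nonpregnant rats (NP) were in proestrus. In each state the cells of 3 rats were frozen whole (D21 rats 5, 6 and 7; NP rats 8, 9 and 10), and those of 3 other rats (D21 rats 1, 2 and 4; NP rats 5, 6 and 7) were first depleted of macrophages (Mφ) with the ED1 antibody and magnetic beads. All 4 groups shared saline perfusion and collagenase dispersal, but the whole cells did not go through the antibody and bead steps, so Mφ removal and handling cannot be told apart. Whole and Mφ-depleted cells also came from different animals.

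Complement is a cascade of plasma and tissue proteins that tags particles and damaged cells for removal. In the classical pathway, C1q, built from the A, B and C chains, binds its target and activates the proteases C1r and C1s, which cleave C4 and C2. In the alternative pathway, factor B (Cfb) joins C3b, is cut by factor D (Cfd) and forms a C3-cleaving enzyme that properdin (Cfp) stabilises. Both routes meet at C3, and the small fragments C3a and C5a act on leukocytes through C3ar1 and C5ar1. The liver makes most plasma components, whereas C1q is made largely by tissue Mφ and related cells, and epithelia and fibroblasts can make C3, factor B, C1r and C1s.

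The 60-base probes below show which stretch of the transcript was read for genes that behaved differently on Mφ depletion: C1qa and C1qc, which fell by wide margins, C1s, which fell less, and C3 and Cfp, which did not pass the test. No base is set in capitals because nothing was mutated or compared at single positions.
C1qa: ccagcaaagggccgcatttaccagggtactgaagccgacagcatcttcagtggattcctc
C1qc: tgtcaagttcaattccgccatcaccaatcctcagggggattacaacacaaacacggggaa
C1s: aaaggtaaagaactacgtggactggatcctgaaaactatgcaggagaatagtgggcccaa
C3: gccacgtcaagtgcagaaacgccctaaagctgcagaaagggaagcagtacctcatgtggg
Cfp: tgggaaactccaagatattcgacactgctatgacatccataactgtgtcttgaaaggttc
The longest run of bases that any 2 of the 9 probes had in common was 9, so the C1q chains were read by unrelated stretches. By the array's rn4 positions the C1q probes lay side by side on the minus strand, at chr5:155662578-155662637 for C1qa, chr5:155656638-155656697 for C1qc and chr5:155647530-155647589 for C1qb. The C1s probe lay at chr4:160736725-160736784 and that of C3ar1 at chr4:159326458-159326517, both on the minus strand. The Cfb probe lay at chr20:4077743-4077802 on the plus strand, and the Cfp probe matched chrX:12586544-12586745, a span of 202 bases for 60 probe bases. The C3 probe was on unplaced sequence and the C5ar1 probe had no position.

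Values are log2 of the probe's intensity relative to its array's 75th percentile, so 0 is the level of that percentile, and they were compared only within a gene. Differences came from a limma fit over all 12 arrays, and a gene was called at an adjusted p below 0.05 (Benjamini-Hochberg over all genes tested). A gene entered a comparison if, in 1 or both of its groups, the scanner marked the probe as well above background for all 3 rats. The 75th percentile itself lay between 290 and 1171 intensity units, and 44.9 to 61.7% of probes were well above background, with NP Mφ-depleted rat 7 the dimmest array on both. Correlations between arrays of a group ran from 0.93 to 0.99. The arrays were on 4 slides scanned on 3 days. All 6 whole arrays were scanned on day 3, with Mφ-depleted D21 rat 4 and NP rat 7. Days 1 and 2 held the remaining 4 arrays, all Mφ-depleted. Slide 4 held all whole D21 arrays and whole NP rat 10. Mφ-depleted D21 rats 1, 2 and 4 were on slides 2, 1 and 3, so no slide held both D21 groups. Whole against Mφ-depleted D21 differences within scan day 3 thus cross slides. A slide term in the fit ties slide 4 to the others only through NP rat 10.

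Mφ removal was read first from genes that mark Mφ. Csf1r, the receptor that Mφ need for survival, was 6.74 higher on the log2 scale in whole than in Mφ-depleted D21 cervix (SE 0.41, adjusted p = 6.61e-06) and 6.68 higher in NP (SE 0.41, adjusted p = 1.75e-06). It was well above background on 1 of 3 Mφ-depleted arrays in each state, so these sizes include signals below background. Emr1 (Adgre1), a surface receptor of Mφ, was well above background on all 6 whole and 0 of 6 Mφ-depleted arrays, at least 36.6-fold higher in whole D21 and 39.6-fold higher in whole NP cells. Cd68, which encodes the protein that ED1 binds, did not pass the test, with differences of -0.15 (adjusted p = 0.882) at D21 and 0.54 (adjusted p = 0.530) in NP. Of 15 Mφ markers listed, 10 of 14 tested were higher in whole D21 cells, and 9 of 12 were higher and 1 lower in whole NP cells. Their log2 summed level spanned 5.70 to 6.15 in whole and 3.63 to 4.19 in Mφ-depleted D21 cells, and 5.55 to 6.97 against 3.52 to 4.25 in NP. In suspensions of mixed cells, fewer cells of a type and less RNA per cell cannot be told apart.

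Of the 9 complement genes, 8 passed the background filter in each comparison of whole with Mφ-depleted cervix, and 5 were called: C1qa, C1qb, C1qc, C1s and C5ar1, all higher in whole cells of both D21 and NP rats. Over all genes tested, 22.4% were called in D21 (11.9% higher in whole) and 32.8% in NP (17% higher in whole). The same 5 genes were higher in every whole rat than in any Mφ-depleted rat, in each state, as were 21.3% of all genes tested at D21 and 23% in NP. C5ar1 and C1qc in both states, and C1qa in NP, passed the filter only through their whole groups, so the count of 5 is no measure of all 9 genes. C3, Cfb and Cfp were tested and not called in either state, and C3ar1 was not tested.

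**Figure D1:**
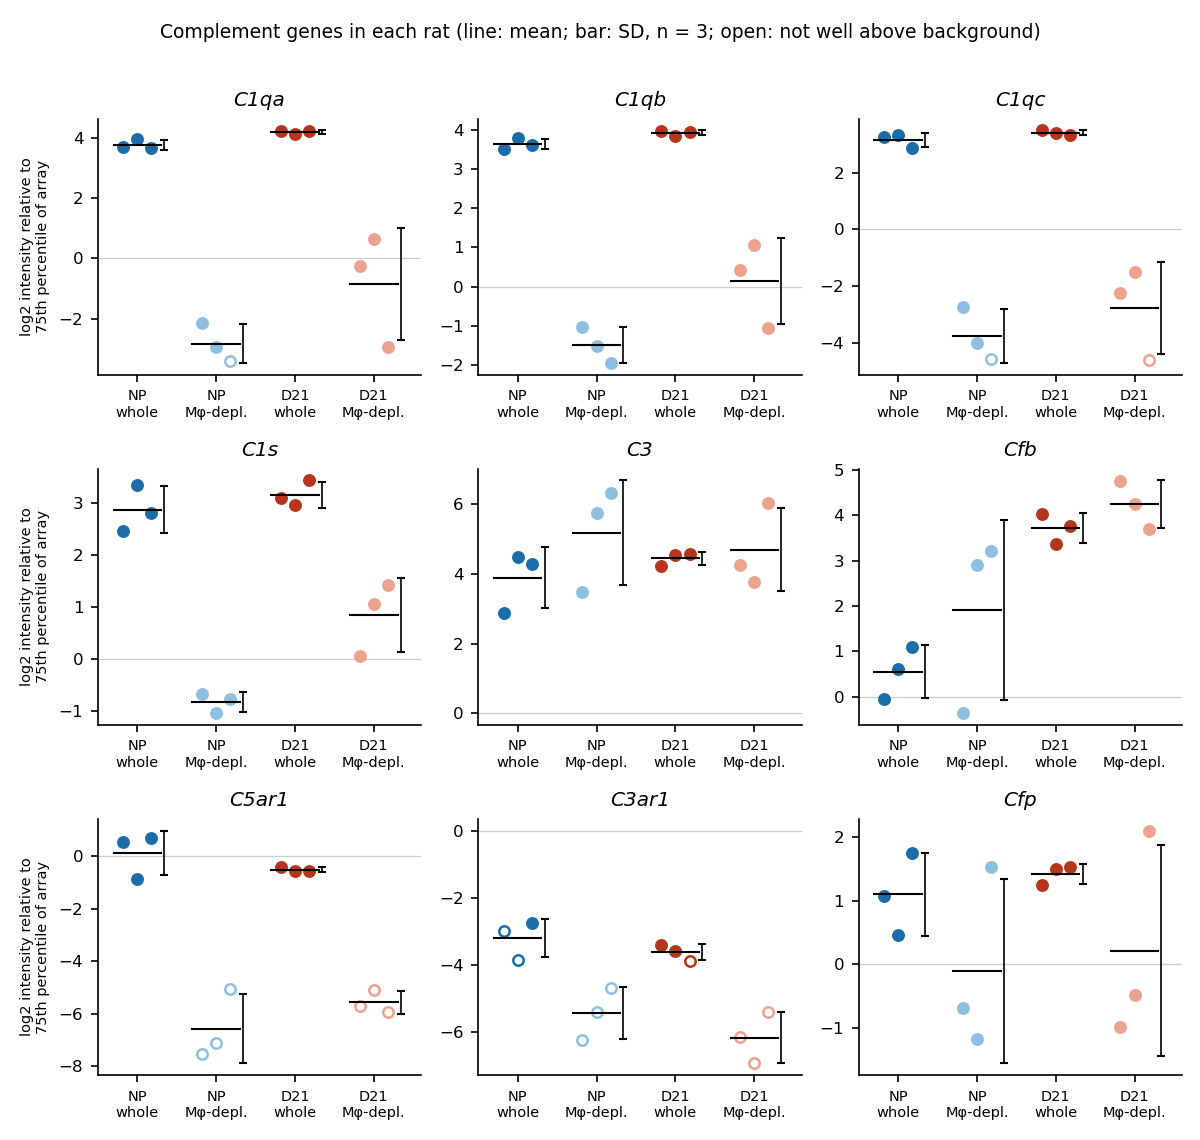
Level of each of the 9 genes in each rat, as log2 intensity over the array's 75th percentile (y axis), for the 4 groups (x axis). Points are rats, lines are group means, bars are SD (n = 3), and open points were not well above background. The C1q chains, C1s, C5ar1 and the dim C3ar1 lie apart between whole and Mφ-depleted cells, whereas C3, Cfb and Cfp overlap.

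C1qa, the A chain of C1q, stood at 4.21, 4.12 and 4.23 in whole D21 rats 5, 6 and 7 and at 3.67, 3.94 and 3.66 in whole NP rats 8, 9 and 10. After Mφ depletion it stood at -0.27, 0.63 and -2.94 in D21 rats 1, 2 and 4, and at -2.13, -2.96 and -3.40 in NP rats 5, 6 and 7. Whole and Mφ-depleted values did not overlap, and the whole rats of each state lay close together while the D21 Mφ-depleted rats were spread widely. The whole group was 5.04 higher at D21 (SE 0.70, 33.0-fold, adjusted p = 0.00108) and 6.59 higher in NP (SE 0.70, 96.3-fold, adjusted p = 4.67e-05). NP rat 7 was not well above background, and its signal is included in the NP size.

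C1qb, the B chain, stood at 3.97, 3.85 and 3.94 in whole D21 rats and at 3.51, 3.79 and 3.61 in whole NP rats. Its Mφ-depleted values were 0.43, 1.07 and -1.05 at D21 and -1.02, -1.51 and -1.94 in NP, and all 6 were well above background. The loss was thus measured on both sides, with no overlap: 3.77 at D21 (SE 0.44, 13.6-fold, adjusted p = 0.000415) and 5.13 in NP (SE 0.44, 35.0-fold, adjusted p = 1.17e-05). C1qc, the C chain, stood at 3.49, 3.41 and 3.31 in whole D21 rats and at 3.26, 3.33 and 2.86 in whole NP rats. Its Mφ-depleted values were -2.25, -1.50 and -4.61 at D21 and -2.72, -4.01 and -4.58 in NP, with D21 rat 4 and NP rat 7 not well above background. C1qc was 6.19 higher in whole D21 cells (SE 0.68, 72.8-fold, adjusted p = 0.000248) and 6.92 higher in whole NP cells (SE 0.67, 121-fold, adjusted p = 2.73e-05). These sizes include the signals of those 2 rats. With normexp background correction, which raises dim signals, the differences were 3.72 for C1qc and 3.43 for C1qa at D21 and 4.78 and 5.05 in NP, all called.

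The 3 chains kept 1 order among the Mφ-depleted rats: rat 2 was highest, then rat 1, then rat 4 at D21, and rat 5, then rat 6, then rat 7 in NP. Over the 12 arrays, C1qa had a Pearson r of 0.998 with C1qb and 0.990 with C1qc, values that share the same arrays and the gap between whole and Mφ-depleted cells. Among 14469 genes, the 5 with the highest r with C1qa were these chains, Clec10a (0.989), Cfd (0.983) and Trem2 (0.983). Clec10a is a lectin of Mφ and dendritic cells, and Trem2 a lipid-sensing receptor of Mφ. Within scan day 3, which holds 1 Mφ-depleted rat in each state, whole cells were higher by 7.12 for C1qa, 4.97 for C1qb and 8.01 for C1qc at D21 and by 7.16, 5.58 and 7.72 in NP, all called. Those contrasts rest on a lone Mφ-depleted array, assumed to vary like the whole arrays. Under the Methods' own test and threshold (p below 0.01 and 2-fold), none of the 3 chains was called at D21, where their Mφ-depleted rats differed most. With that test adjusted over all genes, C1qc was also not called in NP (adjusted p = 0.0536).

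**Figure D2:**
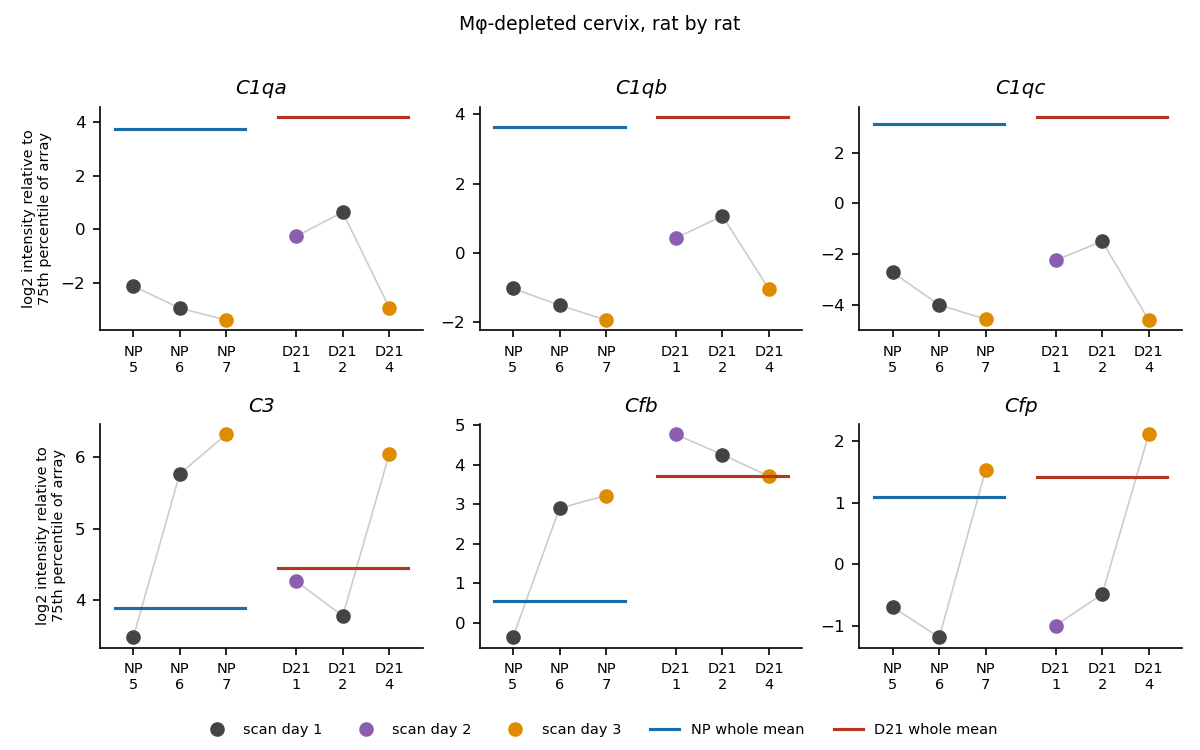
Level of 6 genes in each Mφ-depleted rat (x axis, NP or D21 with the rat number), as log2 intensity over the array's 75th percentile (y axis), coloured by scan day. Horizontal lines are the means of the whole groups (n = 3). D21 rat 4 and NP rat 7, both scanned on day 3, have the lowest C1q values and the highest C3 and Cfp values of their group.

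C1s, the protease that C1r activates, fell less and was well above background on all 12 arrays. It stood at 3.09, 2.95 and 3.43 in whole D21 rats and 2.46, 3.35 and 2.81 in whole NP rats, against 0.06, 1.06 and 1.42 in Mφ-depleted D21 rats and -0.68, -1.04 and -0.77 in Mφ-depleted NP rats. Every whole rat lay above every Mφ-depleted rat, and among Mφ-depleted rats D21 lay above NP. Whole cells were 2.31 higher at D21 (SE 0.35, 4.97-fold, adjusted p = 0.00184) and 3.70 higher in NP (SE 0.35, 13.0-fold, adjusted p = 2.22e-05). At D21 the difference was 1.74 within scan day 3 (adjusted p = 0.0501) and 1.92 with slide as a term (adjusted p = 0.266), and was then not called.

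The rat order of C1s differed from that of the C1q chains: D21 rat 4, the lowest for each chain, was the highest of its group for C1s. Most fibroblast markers were called higher in whole cells in NP, as was C1s, but at D21 most were not called. Of 10 listed (collagens, Pdgfra, Pdgfrb, Dcn, Lum and others), 3 were called higher in whole D21 cells and 9 in whole NP cells, with 0 lower in either, and their log2 summed level was 8.78 to 9.35 in whole and 8.33 to 8.90 in Mφ-depleted D21 cells, against 9.12 to 9.41 and 4.18 to 5.92 in NP. At D21 the group means of Col1a2 (5.95 whole, 6.58 Mφ-depleted) and Pdgfrb (1.79 and 2.05) went the other way. Smooth muscle markers were called higher in whole cells for 6 of 10 at D21 and 10 of 10 in NP. The part of these cell types in the C1s values was not tested. C1r, the partner protease, stood at 2.35 to 2.87 in whole and 1.62 to 2.77 in Mφ-depleted D21 rats, 2.22 to 2.43 in whole NP rats and -1.18 to -0.70 in Mφ-depleted NP rats. Thus C1r was 3.33 higher in whole NP cells (SE 0.32, adjusted p = 2.20e-05), and its D21 difference of 0.65 was not called (SE 0.32, adjusted p = 0.150). A second probe on the array, which the files describe as similar to C1s and which was picked after its values were seen, differed by 1.17 at D21 (adjusted p = 0.0195) and 3.73 in NP (adjusted p = 6.06e-06).

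C5ar1, the receptor for C5a on myeloid cells, stood at -0.42, -0.57 and -0.57 in whole D21 rats and at 0.52, -0.86 and 0.70 in whole NP rats. None of the 6 Mφ-depleted arrays showed it well above background, and measured values there ran from -7.53 to -5.05. Against the lowest signal that counted as well above background, C5ar1 was at least 17.9-fold higher in whole D21 cells (adjusted p = 0.000393) and at least 23.2-fold higher in whole NP cells (adjusted p = 1.34e-05). Here and below, an adjusted p beside an at-least fold belongs to the measured difference, which includes signals below background. The at-least fold itself was not tested. With normexp background correction, which raises dim signals, the D21 difference was 1.52 and was not called (adjusted p = 0.204). With slide as a term it was 3.65 (adjusted p = 0.295).

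C3ar1, the receptor for C3a, was near the floor of the array. It stood at -3.43, -3.59 and -3.88 in whole D21 rats, of which 2 were well above background, and at -3.01, -3.85 and -2.75 in whole NP rats, of which 1 was. Mφ-depleted values were -6.17, -6.95 and -5.42 at D21 and -6.24, -5.42 and -4.69 in NP, none well above background. Against the lowest signal well above background, C3ar1 was 2.07-fold higher in whole D21 and 2.32-fold higher in whole NP cells, with no test. Those means include whole rats that were not well above background, so neither fold is a lower bound. With no filter on background it entered the fit, with adjusted p = 0.0168 at D21 and 0.0131 in NP. Most of the signals compared there were not well above background.

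C3, on which all pathways meet, was high on every array and did not follow the C1q chains. It stood at 4.22, 4.56 and 4.56 in whole D21 rats and 2.89, 4.49 and 4.30 in whole NP rats. After Mφ depletion it stood at 4.27, 3.78 and 6.04 in D21 rats 1, 2 and 4 and at 3.48, 5.76 and 6.31 in NP rats 5, 6 and 7, so the groups overlapped in both states. Whole minus Mφ-depleted was -0.25 at D21 (95% interval -1.88 to 1.39, adjusted p = 0.831) and -1.29 in NP (95% interval -2.93 to 0.34, adjusted p = 0.207). The order of C3 among the Mφ-depleted rats was the reverse of the C1q order in each state, rat 4 above rat 1 above rat 2 and rat 7 above rat 6 above rat 5. The NP difference ran from -2.78 to -0.73 in 24 alternative runs, of which 20 left it not called and 4 called it. Without NP Mφ-depleted rat 5 it was -2.15 (adjusted p = 0.0322), and with scan day as a term -2.58 (adjusted p = 0.0294). Within scan day 3, with NP rat 7 as the lone Mφ-depleted array, it was -2.42.

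Cfb, the protease of the alternative pathway, stood at 4.03, 3.37 and 3.77 in whole and 4.76, 4.25 and 3.70 in Mφ-depleted D21 rats. In NP it stood at -0.06, 0.62 and 1.10 in whole rats and at -0.37, 2.90 and 3.22 in Mφ-depleted rats 5, 6 and 7. Whole minus Mφ-depleted was -0.52 at D21 (95% interval -2.19 to 1.16, adjusted p = 0.644) and -1.36 in NP (95% interval -3.03 to 0.31, adjusted p = 0.194). Rat 5 alone among the Mφ-depleted NP rats was as low as the whole NP rats. Without it the NP difference was -2.50 (adjusted p = 0.00157). Within scan day 3, with NP rat 7 as the lone Mφ-depleted array, the NP difference was -2.66. With scan day as a term it was -1.95 and not called (adjusted p = 0.174). It ran from -2.66 to -0.59 in 24 alternative runs, of which 22 left it not called and 2 called it. Epithelial markers differed between these groups as well: of 10, 4 were called lower and 1 higher in whole D21 cells, and 7 lower and 0 higher in whole NP cells. Their log2 summed level was 8.03 to 8.68 in whole and 9.09 to 9.56 in Mφ-depleted D21 cells, and 7.07 to 8.65 against 8.98 to 9.89 in NP. In Mφ-depleted D21 cells the sum is weighted by the brightest markers, Krt5 (5.29 whole, 7.39 Mφ-depleted) and Krt14 (5.69 and 7.67). The D21 means of Epcam (4.59 and 3.83), Krt8 (5.37 and 4.39) and Cldn7 (3.57 and 2.16) ran the other way. Of 9 immediate-early genes, which respond to handling and stress, 8 were called lower in whole cells in each state. The part of either list in the C3 and Cfb values was not tested.

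Cfp, properdin, which neutrophils, monocytes and Mφ are known to make, stood at 1.24, 1.50 and 1.52 in whole D21 rats and 1.08, 0.46 and 1.76 in whole NP rats. After Mφ depletion it was -0.99, -0.48 and 2.11 in D21 rats 1, 2 and 4 and -0.69, -1.19 and 1.54 in NP rats 5, 6 and 7. In each state a pair of Mφ-depleted rats lay below all whole rats, and 1 rat lay among or above them. Whole minus Mφ-depleted was 1.21 at D21 (SE 0.81, 95% interval -0.57 to 2.99, adjusted p = 0.288) and 1.21 in NP (SE 0.81, 95% interval -0.56 to 2.99, adjusted p = 0.275). The high rats, D21 rat 4 and NP rat 7, were those scanned on day 3. Without D21 rat 4 the D21 difference was 2.16 (adjusted p = 0.0291). With array weights it was 2.16 at D21 (adjusted p = 0.00167) and 1.67 in NP (adjusted p = 0.0377). Within scan day 3 the differences turned to -0.68 at D21 and -0.44 in NP, neither called.

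**Figure D3:**
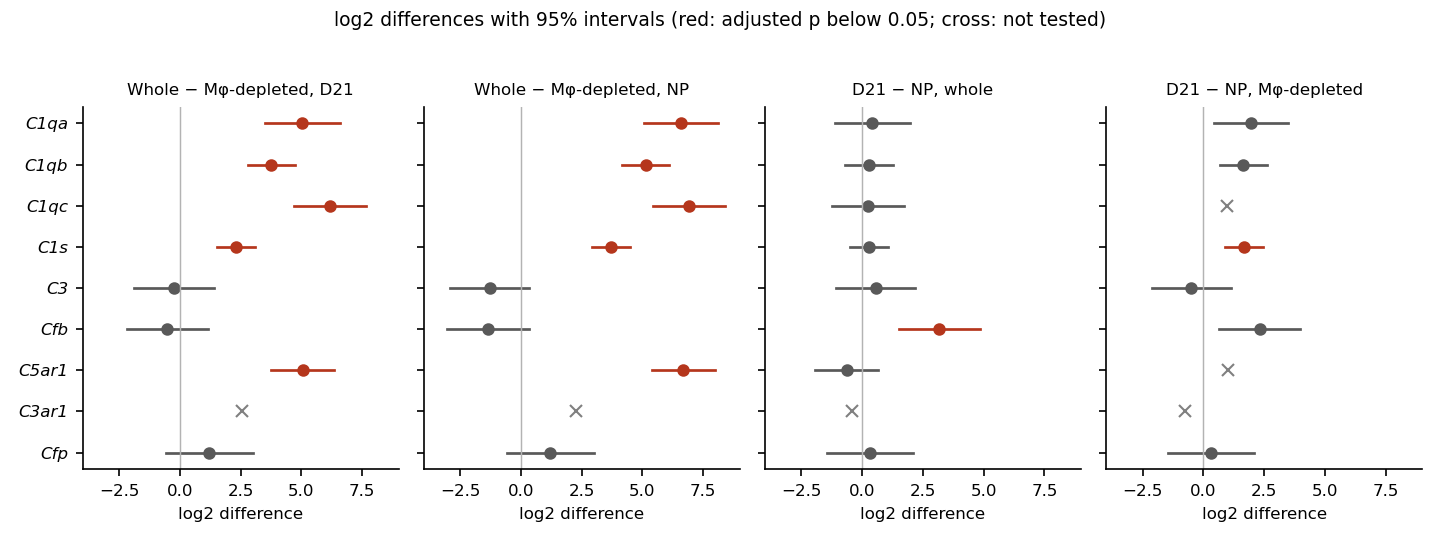
log2 differences of the 9 genes (x axis) with 95% intervals from the limma fit, in 4 comparisons (3 rats a group). Red marks adjusted p below 0.05, grey a gene tested and not called, and a cross a measured difference that was not tested. C5ar1 and C3ar1 are drawn at measured differences that include signals below background. Cfb is the only red gene between whole D21 and NP cervix and C1s the only one between Mφ-depleted D21 and NP cervix.

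Between whole cervix of D21 and NP rats, 8 of the 9 genes were tested and Cfb was called, beside 5.88% of all genes (3.95% higher at D21). Cfb was 3.17 higher at D21 (SE 0.76, 9.00-fold, adjusted p = 0.0366), and the lowest D21 rat, at 3.37, lay above the highest NP rat, at 1.10. It ranked 65 of 14038 genes from the highest difference. The difference lay between 2.62 and 3.44 in every alternative run, but the call did not hold in all: on leaving out any 1 of the 6 whole rats the adjusted p was 0.0613 to 0.153, and with slide as a term it was 0.342. The NP arrays lay on slides 3 and 4 and all D21 arrays on slide 4, where Cfb was 2.62 higher in the 3 D21 rats than in NP rat 10.

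Epithelial markers were also higher in whole D21 cervix, 7 of 10 called and 0 lower. Krt18, a keratin of simple epithelium, was 2.60 higher (adjusted p = 0.00966), and Cldn7, a tight junction protein, 2.47 higher (adjusted p = 0.00966). Krt14, from the same list, had group means of 5.69 in whole D21 and 6.99 in whole NP cervix, and Krt5 means of 5.29 and 5.02. The genes most like Cfb over the 12 arrays, of 14469 compared, were Arse (Arsl in RefSeq, r = 0.959), Msln (0.945), Necap1 (0.939), an unnamed transcript (0.928) and Upk1b (0.927). Msln encodes mesothelin and Upk1b a uroplakin of epithelial surfaces. Msln was 2.93 higher (adjusted p = 0.0206) and Upk1b 2.27 higher (adjusted p = 0.00771) in whole D21 than NP cervix. The part of the epithelium in the Cfb values was not tested.

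The other 7 genes tested in whole cervix were not called between D21 and NP. The C1q chains differed by 0.43 for C1qa (95% interval -1.11 to 1.96, adjusted p = 0.760), 0.28 for C1qb (95% interval -0.69 to 1.26, adjusted p = 0.749) and 0.25 for C1qc (95% interval -1.23 to 1.73, adjusted p = 0.858). C1qa and C1qb were higher in each of the 3 D21 rats than in any NP rat, as was Cfb, which makes 3 of the 8 genes tested beside 20% of all genes. C1s differed by 0.29 (adjusted p = 0.670), C3 by 0.56 (adjusted p = 0.699), Cfp by 0.32 (adjusted p = 0.848) and C5ar1 by -0.64 (adjusted p = 0.551). For C3, the lowest whole rat of all, NP rat 8, set the NP mean apart, while the other 2 NP rats lay among the D21 rats. For C3 the 5 genes most alike over the 12 arrays were Usp6nl (r = 0.905), an unnamed transcript, Inppl1 (0.852), Mecom (0.847) and Plch1 (0.845), all below the values found for C1qa and Cfb.

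Between Mφ-depleted D21 and NP cervix, 6 of the 9 genes were tested, and C1s was called, beside 4.59% of all genes (3.62% higher at D21). C1s was 1.68 higher at D21 (SE 0.35, 3.20-fold, adjusted p = 0.0207), with no overlap between the groups. Cfb did not overlap either, which makes 2 of 6 genes tested beside 9.54% of all genes. The C1s call was lost in 10 of 24 alternative runs, with differences from 1.09 to 2.19 over all 24. Among the losses were the runs without D21 rat 2 (adjusted p = 0.0843), NP rat 5 (0.0609) or NP rat 6 (0.0677). C1qb was 1.64 higher at D21 (SE 0.44, adjusted p = 0.0622) and C1qa 1.97 higher (SE 0.70, adjusted p = 0.138), neither called. With scan day as a term C1qb was 1.72 higher and called (adjusted p = 0.0240), and without D21 rat 4 both were called, C1qa at 3.01 (adjusted p = 0.000916) and C1qb at 2.24 (adjusted p = 0.00108). Cfb was 2.32 higher (SE 0.76, adjusted p = 0.115) and was called without NP rat 7 (2.97, adjusted p = 0.0462). With array weights C1qa (2.30, adjusted p = 0.00520), C1qb (1.76, adjusted p = 0.00338) and Cfb (3.48, adjusted p = 0.00891) were called. Most alternative runs called none of these 3 genes. C1qa was called in 3 of 23 runs (0.47 to 3.01), C1qb in 8 of 24 (0.89 to 2.24) and Cfb in 2 of 24 (0.49 to 3.48). On slide 3, which holds 1 Mφ-depleted rat of each state, D21 rat 4 was higher than NP rat 7 by 0.47 for C1qa, 0.89 for C1qb and 0.49 for Cfb, with no test. On slide 1, D21 rat 2 was higher than the mean of NP rats 5 and 6 by 3.17, 2.33 and 2.99. C3 differed by -0.49 (adjusted p = 0.733) and Cfp by 0.32 (adjusted p = 0.844). Of the fibroblast markers, 8 of 10 were called higher in Mφ-depleted D21 cervix.

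Whether Mφ depletion changed a gene by a different amount at D21 and in NP was tested as an interaction. By limma 0 of the 8 genes tested were called, beside 2.39% of all genes. The difference of differences was -1.39 for C1s (SE 0.50, adjusted p = 0.167). The same measure was -1.55 for C1qa (adjusted p = 0.423), -1.36 for C1qb (adjusted p = 0.276) and -0.73 for C1qc (adjusted p = 0.711). C5ar1 was not well above background on any Mφ-depleted array, so its interaction compares signals below background and its size is not given. Without Mφ-depleted D21 rat 4, C1qa (-2.59, adjusted p = 0.00913) and C1qb (-1.96, adjusted p = 0.0103) were called. With array weights, C1qa was called at -1.82 (adjusted p = 0.0323) and C1qb at -1.44 (adjusted p = 0.0183). Within scan day 3, with a lone Mφ-depleted array in each state, the values were -0.04 for C1qa and -0.61 for C1qb, neither called.

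Read as an order of levels, C1qa, C1qb and C1qc ran from whole D21 through whole NP and Mφ-depleted D21 to Mφ-depleted NP, with a wide gap between whole NP and Mφ-depleted D21. The steps on either side of that gap were not called for these chains where tested, and the lower step of C1qc was not tested. C1s ran in the same order, and its groups overlapped only between whole D21 and whole NP. Cfb ran from Mφ-depleted D21 (4.24 ± 0.53, SD, n = 3) and whole D21 (3.72 ± 0.33), which overlapped, through Mφ-depleted NP (1.92 ± 1.98) to whole NP (0.55 ± 0.59), which overlapped as well. C3 ran from Mφ-depleted NP (5.19 ± 1.50) through Mφ-depleted D21 (4.69 ± 1.19) and whole D21 (4.45 ± 0.19) to whole NP (3.89 ± 0.87), with every neighbour overlapping. Over the 12 arrays the r of C1qa was 0.915 with C1s and 0.925 with C5ar1 but -0.13 with Cfb and -0.57 with C3.

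The wider complement system was read from 42 other genes, of which 36 were on the array. Between whole and Mφ-depleted cervix, 8 were called higher and 1 lower of 23 tested at D21, with a median difference of 1.01 against -0.06 over all genes, and 8 higher and 0 lower of 20 in NP, with a median of 1.14 against -0.04. Over all genes tested, 11.9% were called higher in whole cells at D21 and 17% in NP. Many of the complement genes tested passed the filter only through their whole groups, and neither median stands for all 36.

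**Figure D4:**
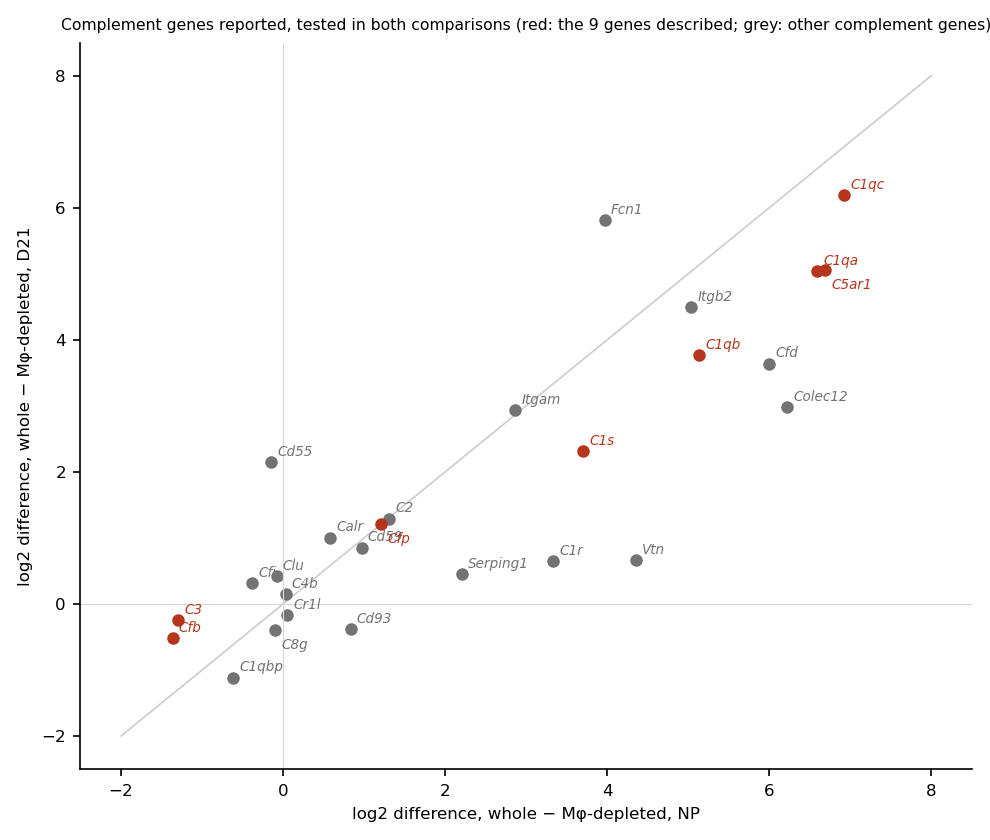
log2 difference between whole and Mφ-depleted cervix in NP (x axis) and at D21 (y axis) for the complement genes reported here that were tested in both, 3 rats a group. Serping1 had a value for only 2 of the Mφ-depleted D21 rats. Red points are the described genes and grey points other complement genes, and the diagonal marks equal differences. C1r, Vtn and Serping1 lie below the diagonal, with D21 differences near 0, and C3 and Cfb lie below 0 on both axes.

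Among the recognition molecules, the ficolin Fcn1 (Fcna in RefSeq), which binds sugars and acetyl groups, was well above background on 0 of 6 Mφ-depleted arrays. It was at least 38.9-fold higher in whole D21 (adjusted p = 1.06e-05) and 9.70-fold higher in whole NP cells (adjusted p = 2.95e-05). Fcn1 was also the gene called between whole D21 and NP cervix, 1.82 higher at D21 (SE 0.39, adjusted p = 0.0242). That was 1 of 23 tested, beside 5.88% of all genes. The ficolin Fcnb was at least 23.1-fold higher in whole D21 cells (adjusted p = 0.0158), and the collectin Colec12 was 2.98 higher at D21 (adjusted p = 0.00294) and at least 24.7-fold higher in NP (adjusted p = 6.87e-06). Cfd, the protease that cuts factor B, was 3.64 higher in whole D21 (adjusted p = 0.000753) and 5.99 higher in whole NP cells (adjusted p = 6.87e-06). C2 differed by 1.29 and 1.31 (adjusted p = 0.167 and 0.150) and C4b (C4a in RefSeq) by 0.15 and 0.03 (adjusted p = 0.812 and 0.959), with group means of C4b between 1.80 and 2.11.

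The integrin chains of complement receptor 3, Itgam and Itgb2, followed C5ar1. Itgam was 2.93 higher in whole D21 (adjusted p = 0.00124) and 2.86 higher in whole NP cells (adjusted p = 0.000381), and Itgb2 was at least 5.96-fold (adjusted p = 0.00214) and 8.81-fold higher (adjusted p = 0.000285). C1qbp, a mitochondrial protein first found by its binding to C1q, was the gene called lower in whole D21 cells, by -1.11 (adjusted p = 0.0166). Vsig4 and Cr2 were well above background on no array, and Gpr77 (the second C5a receptor, C5ar2) on 1. The regulators Cfi, Cd55, Cd59 and Clu were not called in either state, with differences between -0.38 and 2.15. Serping1, the C1 inhibitor, was 2.21 higher in whole NP cells (adjusted p = 0.000547) and 0.45 at D21 (adjusted p = 0.383), and vitronectin, Vtn, was 4.35 higher in NP (adjusted p = 8.06e-05) and 0.67 at D21 (adjusted p = 0.343). Serping1 had no value for Mφ-depleted D21 rat 1, so its D21 difference rests on 2 Mφ-depleted rats. Of the components known mainly from liver, Mbl1, Mbl2, Masp2 and C9 were well above background on 0 of 12 arrays, C6 on all 3 whole D21 arrays and 2 in each other group, and C8g on all arrays but 1 in Mφ-depleted NP cells.

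Between Mφ-depleted D21 and NP cervix, 4 of 17 other complement genes were called, beside 4.59% of all genes. All 4 were higher at D21: Vtn by 3.82 (adjusted p = 0.00168, with 1 of 3 NP arrays well above background), Colec12 by at least 2.69-fold (adjusted p = 0.00524), C1r by 3.01 (adjusted p = 0.000492) and Cfd by 2.47 (adjusted p = 0.0135). The second C1s-like probe, picked after its values were seen, was 2.28 higher (adjusted p = 0.00149). C1s and these 4 genes were read on the same 6 arrays, beside the fibroblast marker shift given above.

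RefSeq upstream sequence (GRCr8) was at hand for C1qa, C1qb, C3, C3ar1 and Cfp. The 250 bases before the start site are shown for the neighbours C1qa and C1qb, which moved together, and for C3, which did not. Capitals mark GAGGAA on either strand, the core letters that PU.1, a transcription factor of Mφ, is known to bind. They lie at chr5:154419934-154420183, chr5:154407828-154408077 and chr9:2201340-2201589, all on the minus strand and not on the rn4 scale of the probes.
C1qa: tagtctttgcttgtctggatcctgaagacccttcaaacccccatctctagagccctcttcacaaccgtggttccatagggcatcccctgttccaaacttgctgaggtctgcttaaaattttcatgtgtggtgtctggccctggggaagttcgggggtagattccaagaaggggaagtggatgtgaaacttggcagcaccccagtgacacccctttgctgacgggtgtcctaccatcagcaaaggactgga
C1qb: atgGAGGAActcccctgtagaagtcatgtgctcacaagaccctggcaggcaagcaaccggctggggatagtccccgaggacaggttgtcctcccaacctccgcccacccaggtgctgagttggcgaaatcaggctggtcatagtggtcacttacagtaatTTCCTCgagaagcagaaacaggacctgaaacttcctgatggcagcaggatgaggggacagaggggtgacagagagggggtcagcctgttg
C3: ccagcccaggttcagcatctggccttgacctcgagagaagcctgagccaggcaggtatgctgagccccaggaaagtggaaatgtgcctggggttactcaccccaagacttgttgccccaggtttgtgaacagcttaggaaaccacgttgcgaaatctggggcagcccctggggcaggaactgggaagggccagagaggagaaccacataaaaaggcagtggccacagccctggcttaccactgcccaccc
GAGGAA began at -247 and, on the other strand, at -90 in C1qb, at -76 and -60 in Cfp, and was in none of the windows of C1qa, C3 and C3ar1. Of 33469 windows of this length, 23.3% held it. TTCNNNGAA, letters of STAT sites, was in C1qa at -90 and in 7.67% of all windows. Both motifs were searched on both strands, and they did not overlap in any of the 5 windows. C1qa and C1qb, which moved together, did not hold the same letters, and a match describes the window only.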

How the data were processed

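Each rat's cervix RNA was hybridised to 1 Agilent rat 4x44K array. The authors deposited scanner output of Agilent Feature Extraction 9.5.3.1, of which the processed intensity per spot and its flags were used, and a table holding the ratio of intensity to the array's 75th percentile, used as an alternative. Here outlier spots were left out, spots of a probe averaged, log2 taken and the array's 75th percentile subtracted. A gene was read from its brightest probe. Python 3.11.15, R 4.3.3 and limma 3.58.1 (lmFit, eBayes; 1 mean per group; Benjamini-Hochberg) were used, where the Methods used Welch's test at p below 0.01 with 2-fold. The fit was tested on simulated data. At-least folds compare means with the lowest signal well above background. An adjusted p beside them is that of the measured difference. Named genes were all 9, preset complement genes, up to 3 others called per direction, and the 5 genes most like C1qa, C3 and Cfb. Members and lists were chosen with earlier results of these data known. Of the listed complement genes, 1 is counted but not reported here. The number of arrays limits precision. RefSeq names matched 57.1% of probes.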

Additional observations from a re-analysis of the deposited data

Results flagged for a closer look

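Of 23 other complement genes tested, 3 passed the test for a different change on Mφ depletion at D21 and in NP. Over all genes tested 2.39% did, and none of the 9 described genes did. The difference of differences (whole minus Mφ-depleted, D21 minus NP) was -2.68 for C1r (adjusted p = 0.0130), -3.24 for Colec12 (adjusted p = 0.0404) and -3.68 for Vtn (adjusted p = 0.0252). Whole minus Mφ-depleted was 0.65 at D21 and 3.33 in NP for C1r, 2.98 and 6.22 for Colec12, and 0.67 and 4.35 for Vtn. Of 10 fibroblast markers, 7 passed the same test in the same direction, and their part in these 3 values was not tested. Colec12 was well above background on 0 and Vtn on 1 of the 3 Mφ-depleted NP arrays, so their sizes include signals below background.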

How the results depend on the processing

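The counts of complement genes called moved as follows. In whole against Mφ-depleted D21 cervix, 5 called became 1 under the Methods' Welch test at its threshold and 0 after adjustment, and 3 where a probe had to be above background on every array or with slide as a term. In NP, 5 became 3 under the adjusted Welch test and 2 where a probe had to be above background on every array. In whole D21 against NP cervix, 1 became 0 under the adjusted Welch test, normexp, no filter on background, and slide as a random block or a term, and was 0 on leaving out any 1 rat. In Mφ-depleted D21 against NP cervix, 1 became 2 under the Methods' threshold in limma, normexp, and slide or scan day as a random block or a term, 4 with array weights, 0 under both Welch tests, with the arrays of the contrast alone, the percentile over detected probes, no filter, and within scan day 3, and ran from 0 to 3 on leaving out each rat. For the interaction, 0 became 3 with array weights and ran from 0 to 2 on leaving out each rat. Other settings left each count within 1.5 times its value.

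Directions turned as follows, none of them called. Cfp in whole against Mφ-depleted cervix was -1.64 with slide as a term, -0.65 with scan day as a term and -0.68 within scan day 3 at D21, and -0.80, -0.47 and -0.44 in NP. Cfp between whole D21 and NP cervix was -0.34 with slide as a term. Cfp between Mφ-depleted D21 and NP cervix was -0.34 with array weights, and -0.62 to 1.15 on leaving out each rat. Its interaction was 0.10 with normexp, 0.14 with the percentile over detected probes, 0.48 with array weights, 0.18 with slide and 0.029 with scan day as a random block, 0.0050 with the authors' ratios, and -0.83 to 0.95 on leaving out each rat. C3 at D21, whole against Mφ-depleted, was 0.029 after quantile normalization, 0.17 with array weights and -0.70 to 0.42 on leaving out each rat, and C3 between Mφ-depleted groups ran from -1.34 to 0.072. Cfb at D21 was 0.019 within scan day 3, and its interaction -0.32 with array weights. Within scan day 3 the interaction was 0.29 for C1qc and 0.23 for C5ar1. The cause was not tested. No paired analysis was possible because the groups compared hold different rats and share no replicate numbers.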
